A study of Arabidopsis thaliana with 39 samples.

Results

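The 40 genes described here encode subunits of the photosynthetic complexes, or factors that help assemble them, and lie on the plastid chromosome of Arabidopsis thaliana. They are all the probe sets on the Affymetrix ATH1 array whose symbol begins with lower-case psa, psb, pet or ndh, or is rbcL, ycf3 or ycf4: 40 of 22810 probe sets, with 1 probe set per gene. They divide into 5 genes of photosystem I, 15 of photosystem II, 6 of the cytochrome b6f complex and 11 of the NDH complex, with the Rubisco gene rbcL and the assembly factors ycf3 and ycf4. The TAIR10.1 gene table places all 40 on the plastid chromosome, and the probe set of ndhB covers both copies of that gene. The RNA came from the root tips (oscillation zone) of seedlings 5 days old, grown on standard media, ecotype Columbia with the auxin reporter DR5-GUS named as the source. The zone was taken as OZ2 (19 arrays) and OZ1 (20 arrays), 1 sample per array, and both groups carry the same background and no treatment is named. The description calls OZ1 the lower part of the zone and the tissue label calls it the upper, so only the names are used. The series text speaks of 39 individual roots, yet 14 of the numbers in the titles occur in both OZ2 and OZ1, and p-values measure the spread between these arrays. The 40 members all entered the tests, which took the 13627 probe sets with a mean log2 signal above the 40th percentile of the array (a signal of 51.8).

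Plastids keep a small genome of their own, which codes for the core subunits of the light-harvesting and electron transport machinery, while most other subunits are made from nuclear genes and imported. Photosystem II splits water, the cytochrome b6f complex passes the electrons on, photosystem I uses light to reduce ferredoxin, and the NDH complex returns electrons to the plastoquinone pool. Plastid genes are transcribed in co-transcribed groups by a bacterial-type and a phage-type RNA polymerase, and root plastids, most of which are not green, transcribe the same genome. In whole tissue, fewer plastids, fewer cells that hold them and less RNA per plastid cannot be told apart.

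All values are signals scaled per array, in arbitrary units, and a level on 1 probe set says nothing about a level on another. The mean log2 signal of all tested probe sets stayed within 7.48 and 7.82 on the 39 arrays. The control level used below is the mean log2 signal of 18 probe sets for bacterial and phage transcripts (BioB, BioC, BioD and Cre), which the standard Affymetrix protocol adds in a fixed amount to each labelled sample. It ran from 11.9 to 15.5 in OZ2 and from 10.7 to 14.5 in OZ1. The instrument records gave 3 scan days: day 1 held 10 OZ2 and 12 OZ1 arrays, day 2 held 8 OZ1 arrays and day 3 held 9 OZ2 arrays. A further difference between arrays lay in the mean log2 signal of 27 poly-A control probe sets. On day 1 it ran from 6.25 (OZ1-1) to 14.0 (OZ2-9). On day 2 it ran from 3.14 (OZ1-20) to 4.92 (OZ1-15), apart from OZ1-3 (9.42). On day 3 it ran from 3.28 (OZ2-21) to 5.37 (OZ2-19), apart from OZ2-36 (9.76), OZ2-39 (10.3) and OZ2-40 (10.1). Day contrasts below include this difference. On 11 arrays (5 OZ2, 6 OZ1) the hybridisation controls took over 5% of the signal, and 6 arrays (OZ2-32 and OZ2-38, OZ1-2, OZ1-3, OZ1-6 and OZ1-10) lay nearer the other group over all tested probe sets. Results are given below with and without these arrays where that changes them.

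A pair of OZ1 arrays stood apart from the rest for the plastid-encoded genes. The mean log2 signal of the 40 members was 11.99 on OZ1-16 and 11.41 on OZ1-15, both of scan day 2 and at positions 10 and 9 of the submitters' order, and the next highest were 10.07 on OZ2-19 and 9.79 on OZ2-9. For all 40 members the highest OZ1 value was on 1 of these 2 arrays, on OZ1-16 for 36 of them. For 37 members both arrays lay above each of the other 18 OZ1 arrays, as they did for 766 of the 13627 tested probe sets (5.62%). The other plastid-encoded probe sets on the array, for genes that code for ribosomal proteins, RNA polymerase, ATP synthase and other functions, did the same in 37 of 37 cases. None of the 4 nuclear genes for subunits of the same complexes did: PSBY, a small photosystem II subunit, had signals of 132 on OZ1-15 and 162 on OZ1-16, against 23.4 to 997 on the other OZ1 arrays. LHCB4.1, a nuclear gene of the light-harvesting antenna and a marker of green tissue, had 21.4 and 21.6 on OZ1-15 and OZ1-16, against 4.59 to 298. LHCB4.2, the other such marker, had 8.13 on OZ1-15 and 147 on OZ1-16, against 6.76 to 306 around a median of 57.6. All of these marker values but the 147 lay below the signal of 51.8 that a mean had to pass for testing, so they say little about green tissue. The 2 arrays were singled out after the values were seen, so these counts are a description. Each of the 3 comparisons of the members below is given with and without them.

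**Figure D1:**
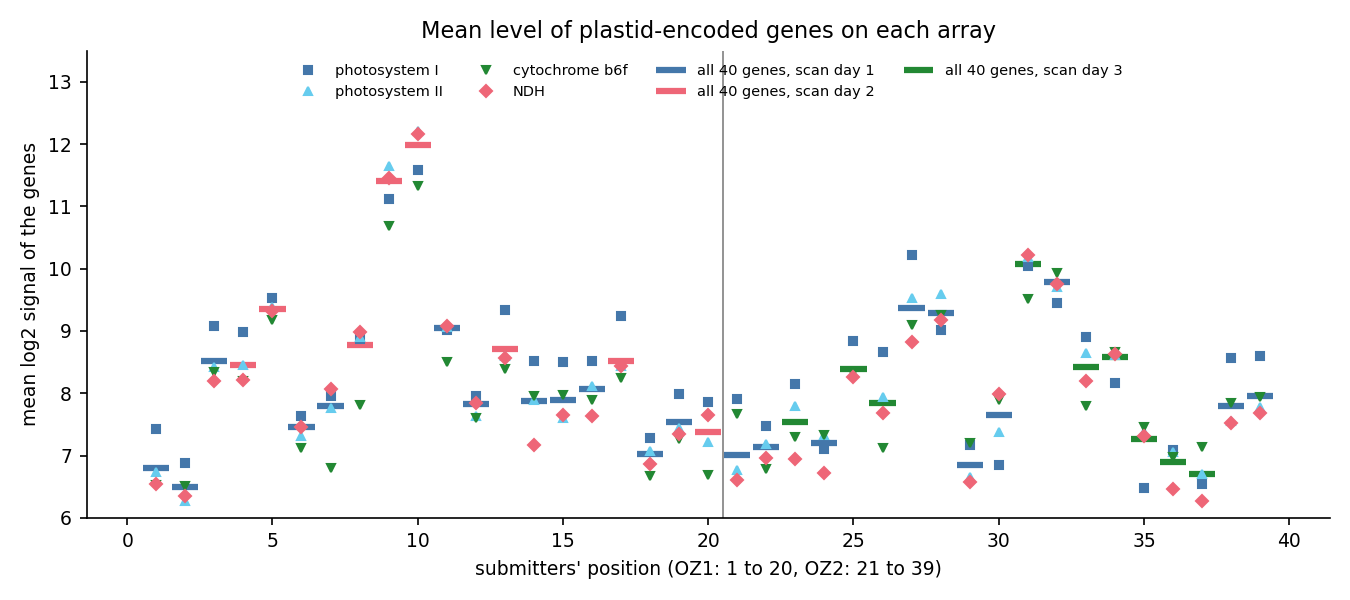
Mean log2 signal of the plastid-encoded genes on each array along the submitters' positions, as a short line for all 40 genes coloured by scan day and as symbols for the genes of 4 complexes. Positions 9 and 10 (OZ1-15 and OZ1-16) stand highest, at 11.41 and 11.99, and the 4 complexes move together from array to array.

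The first comparison asked whether the members differ in level between OZ2 and OZ1. Of the 40, 2 fell in OZ2 and 0 rose, while over all 13627 tested probe sets 15.6% fell and 13.3% rose (limma, Benjamini-Hochberg adjusted p under 0.05). The 2 were psaI, a small membrane subunit of photosystem I, with a log2 difference of -1.04 ± 0.39 (SE, adjusted p = 0.0386), and ycf4, a photosystem I assembly factor, with -0.98 ± 0.38 (adjusted p = 0.049). The share called was thus below the background in both directions. The estimated differences of 33 members lay below 0, with a median of -0.44 on the log2 scale, against -0.09 over all tested probe sets. The array means of the members averaged 7.99 ± 1.03 log2 units in OZ2 and 8.35 ± 1.37 in OZ1 (SD, n = 19 and 20). By complex the median differences were -0.59 for photosystem I, -0.36 for photosystem II, -0.27 for cytochrome b6f and -0.53 for NDH, with -0.77 for rbcL. OZ2 and OZ1 overlapped for all 40 members, and no test was made over the complexes.

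The signal of psaI ran from 268 to 5761 around a median of 947 in OZ2, against 563 to 18496 around a median of 2182 in OZ1. Its higher OZ1 values came mostly from scan day 2, where it ran from 1504 to 18496 around 4245, against 563 to 4564 around 1375 on day 1 in OZ1. The signal of ycf4 ran from 36.5 to 1087 around a median of 217 in OZ2, against 144 to 3836 around a median of 377 in OZ1. Without OZ1-15 and OZ1-16 neither fall passed: the log2 difference was -0.73 for psaI (adjusted p = 0.12) and -0.66 for ycf4 (adjusted p = 0.152). In that fit the median over the members was -0.09 with 24 below 0, 0 members fell (14.9% of all tested probe sets did) and 1 rose (12.4% did): petG, a small subunit of cytochrome b6f, with 1.46 ± 0.50 (adjusted p = 0.0243). The OZ1 mean of petG over all 20 arrays was 5.79 log2 units, near the tested level of 5.69. Its signals of 580 on OZ1-15 and 1429 on OZ1-16, against at most 181 on the other OZ1 arrays, were left out in that fit. This rise thus rests on low OZ1 values and is a description. Without the 6 arrays nearer the other group psaI fell (-1.38, adjusted p = 0.00666) and ycf4 did not pass (-0.92, adjusted p = 0.0702). Without the 11 arrays of strong controls both fell (psaI by 1.00, adjusted p = 0.0496, and ycf4 by 0.82, adjusted p = 0.0473; 20.7% of all fell), and the median over the members was -0.18. Over all arrays petG had a log2 difference of 1.01 ± 0.55 (adjusted p = 0.172), the largest above 0. The fall of psaI also lost its call when any 1 of 17 arrays was left out (OZ2-4, OZ2-6, OZ2-14, OZ2-21, OZ2-22, OZ2-23, OZ2-35, OZ2-39, OZ2-40, OZ1-13, OZ1-14, OZ1-15, OZ1-16, OZ1-17, OZ1-19, OZ1-22 and OZ1-23), with adjusted p from 0.0174 to 0.0682 over all 39 choices. That of ycf4 lost it for any 1 of 24 (OZ2-4, OZ2-6, OZ2-14, OZ2-15, OZ2-21, OZ2-22, OZ2-23, OZ2-32, OZ2-36, OZ2-39, OZ2-40, OZ1-2, OZ1-3, OZ1-10, OZ1-13, OZ1-14, OZ1-15, OZ1-16, OZ1-17, OZ1-22, OZ1-23, OZ1-32, OZ1-33 and OZ1-35), with adjusted p from 0.0227 to 0.0896.

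The comparison depended on the scan day. On scan day 1 alone (10 OZ2, 12 OZ1), 30 of the 40 differences lay above 0 and the median was 0.24. There 0 members passed, while 5.88% of all tested probe sets did. An unadjusted p under 0.05 was found for 3 members, against 3140 of all 13627 tested probe sets. OZ2 of day 3 against OZ1 of day 2 gave all 40 differences below 0, a median of -1.38 and 13 falls (13.9% of all tested probe sets fell). Those 13 were psaC, psaI, psbB, psbD, psbF, petA, petB, ndhD, ndhG, ndhH, ndhJ, rbcL and ycf4. Without OZ1-15 and OZ1-16 that late-day contrast had a median of -0.68 with 33 below 0 and 1 fall, that of psaI (log2 difference -1.51 ± 0.51, adjusted p = 0.0347), against 11.7% of all. Days 2 and 3 each held 1 group, so scan day and group cannot be told apart there, and a fit with the day as a block takes its difference from day 1 alone (median 0.24, 0 called, against 11.3% of all). The instrument records also name 5 scanners, and on day 1 only scanner 3 held both groups (OZ2-1, OZ2-4, OZ1-33 and OZ1-35). The other OZ1 arrays of that day were on scanners 1 and 2, and the other OZ2 arrays on scanners 4 and 5. Scanner and group can thus hardly be told apart on day 1, and the part of the scanner was not tested. With the control level added to the model, 8 members fell (psaI, psbD, ndhB, ndhG, ndhI, ndhK, rbcL and ycf4) and 0 rose, where 15.3% of all fell and 13.4% rose, and with both the day block and the control level 0 passed (6.58% of all), at a median of -0.21.

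**Figure D2:**
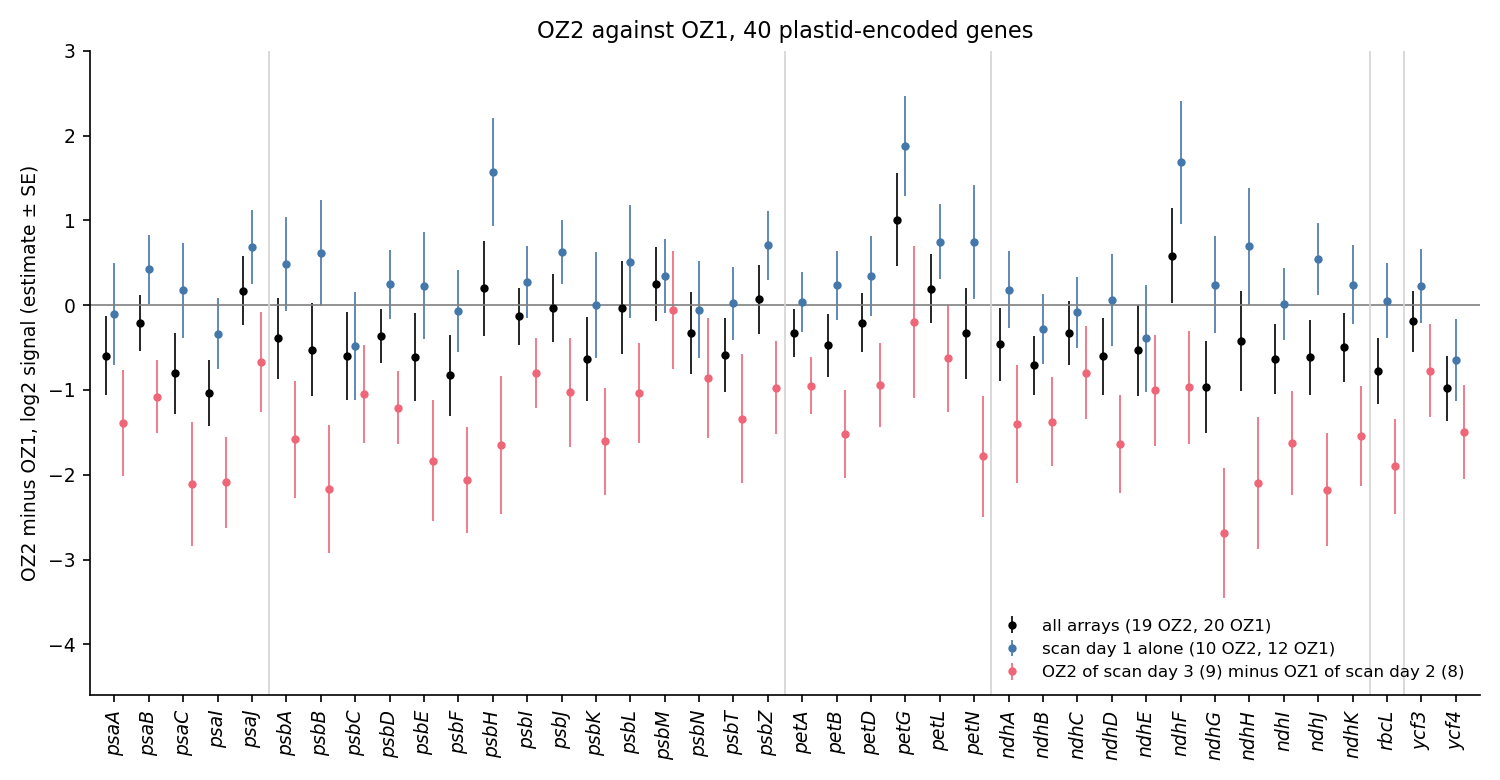
Difference in log2 signal, OZ2 minus OZ1, with its SE, for each of the 40 genes, over all arrays (black), on scan day 1 alone (blue) and for OZ2 of scan day 3 minus OZ1 of scan day 2 (red). The medians are -0.44, 0.24 and -1.38 in that order, and in the last all 40 points lie below 0.

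Within OZ1, all 40 members had higher estimates on day 2 (8 arrays) than on day 1 (12 arrays), by 0.45 (psbT) to 2.73 (ndhH) on the log2 scale, with a median of 1.62. No member passed over all tested probe sets (smallest adjusted p = 0.135, where 0.00734% of all were called), and 35 had an unadjusted limma p under 0.05 (12.1% of all tested probe sets had one). The gene with the largest difference, ndhH, ran from 60.8 to 1236 around 184 on day 2, against 4.82 to 375 around 32.9 on day 1. The median control levels of the days were close (12.56 on day 2, 12.59 on day 1), and the median difference was 1.44 once the control level was in the model. The poly-A controls were lower on the day 2 arrays other than OZ1-3 than on any day 1 array, and their part was not tested. Without OZ1-15 and OZ1-16 the median difference was 0.84 with 38 of 40 above 0, and 14 had an unadjusted p under 0.05 (5.95% of all). Without the 6 OZ1 arrays of strong controls it was 0.93 with 39 above 0, 0 passed and 19 had an unadjusted p under 0.05 (11.8% of all). Without the 4 OZ1 arrays nearer the other group it was 1.81, and 2 members passed (0.044% of all): psbF with 2.99 and ndhH with 3.61 (adjusted p = 0.0488 for both). Within OZ2, day 3 (9 arrays) against day 1 (10 arrays) had a median of -0.06 with 18 of 40 above 0, and neither a member nor any other tested probe set passed (0% called). At an unadjusted p under 0.05 there were 2 members, against 9.72% of all tested probe sets.

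The second comparison set the members against the control level within OZ2 and OZ1, as a slope in log2 signal per log2 unit of control level. All 40 slopes lay above 0, from 0.07 (petA) to 0.92 (ndhF), with a median of 0.60, against 0.01 over all tested probe sets. Of the members 29 rose with the control level (72.5%) and 0 fell, while 12% of all tested probe sets rose and 13.2% fell. The 29 were 3 of 5 genes of photosystem I, 10 of 15 of photosystem II, 5 of 6 of cytochrome b6f and 9 of 11 of NDH, with rbcL and ycf3. The median slopes were 0.49 for photosystem I, 0.61 for photosystem II, 0.57 for cytochrome b6f and 0.67 for NDH, and the slopes within each complex spanned more than these medians differ. In OZ2 alone the median was 0.48 and 11 members rose (3.96% of all), and in OZ1 alone it was 0.64 and 17 rose (7.5% of all). The difference between the OZ2 and OZ1 slopes passed for 0 members (0.176% of all tested probe sets). An unadjusted p under 0.05 was found for 0 members, against 1880 of all 13627 tested probe sets.

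**Figure D3:**
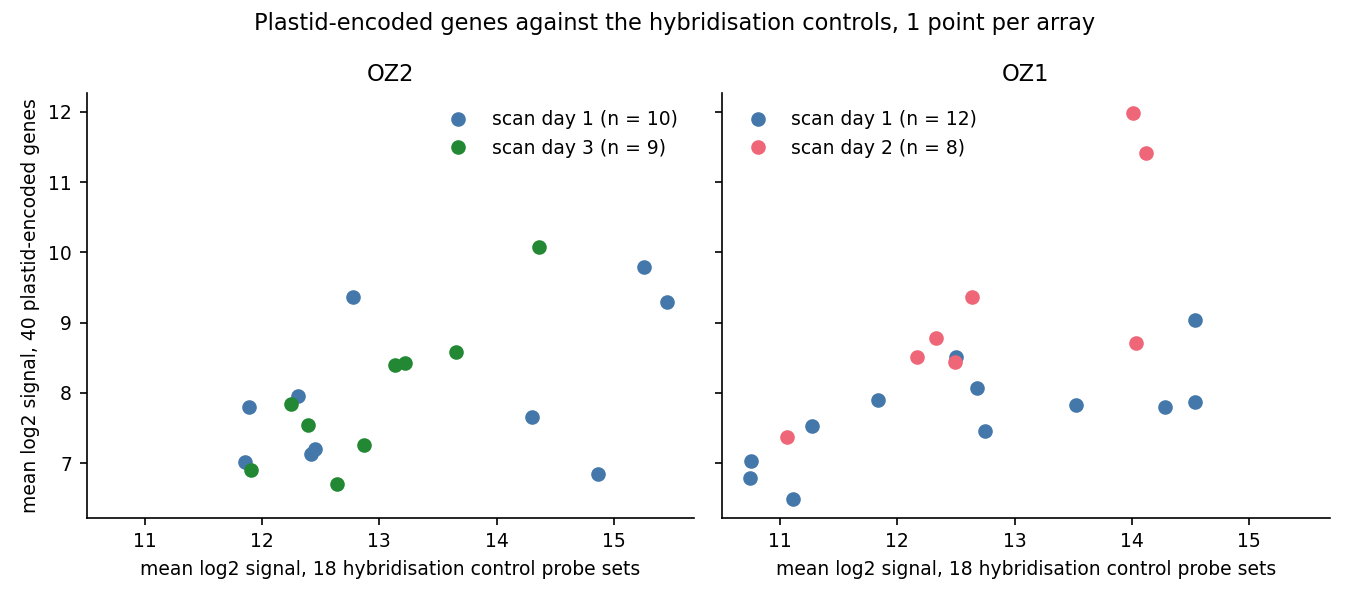
Mean log2 signal of the 40 plastid-encoded genes (vertical axis) against the mean log2 signal of the 18 hybridisation control probe sets (horizontal axis), 1 point per array, for OZ2 (left) and OZ1 (right), coloured by scan day. OZ1-15 and OZ1-16 are the 2 points above 11 in the OZ1 panel, and in OZ1 the day 2 points lie higher than most day 1 points at a like control level.

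Within scan days the median slope stayed above 0 and the calls were fewer. On day 1 alone (22 arrays) the median slope was 0.35 and 10 members rose (6.78% of all tested probe sets). On day 2 alone (8 arrays) it was 1.12, with 0 called (0.0147% of all rose). At an unadjusted p under 0.05 there were 37 members on day 2, and the share of all tested probe sets at that threshold is not given here. On day 3 alone (9 arrays) the median slope was 1.17 and 11 rose (0.25% of all). Without OZ1-15 and OZ1-16 the median was 0.45, 38 of 40 lay above 0 and 19 members rose (10.9% of all), none of them in photosystem I. Without the 11 arrays of strong controls the median was 0.70 and 15 rose (2.16% of all). The array's median signal rose with the control level, from 54.4 at a control level of 10.7 (OZ1-9) to 164 at 15.5 (OZ2-32). A fit with both can thus hardly separate them, and no conclusion is drawn from it. With the array's median signal as a further term, 0 members and 0 of all tested probe sets passed, 3 members had an unadjusted p under 0.05, and the median slope was 0.30. Quantile normalization moved the median slope of all tested probe sets to -0.13 and left 24 members rising (2.96% of all).

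In photosystem I, psaC, the subunit that binds the terminal iron-sulphur clusters, ran from 4.36 to 263 around a median of 87.4 in OZ2, against 17.9 to 1155 around a median of 118 in OZ1. Its slope of 0.60 ± 0.18 (SE, adjusted p = 0.0133) was the steepest of the 5, and its most similar probe sets over the 39 arrays were rbcL (r = 0.867), psbA and rps12. For psaJ, a small membrane subunit, the signal ran from 152 to 2327 around a median of 365 in OZ2, against 131 to 4428 around a median of 328 in OZ1. It had a slope of 0.49 ± 0.15 (adjusted p = 0.016) and its nearest patterns in rpl33 (r = 0.902), psbZ and atpF. For psaA, which codes for a reaction centre protein, the signal ran from 10.3 to 501 around a median of 51.3 in OZ2, against 10.9 to 399 around a median of 109 in OZ1, and the OZ2 median lay close to the lowest mean signal that was tested. The slope of psaA was 0.49 ± 0.18 (adjusted p = 0.0399, 0.0152 to 0.0678 with 1 array left out), and its nearest patterns were psbK (r = 0.751), AT2G07741 and psbA. It lost its call when any 1 of 13 arrays was left out (OZ2-6, OZ2-9, OZ2-19, OZ2-21, OZ2-32, OZ1-3, OZ1-4, OZ1-10, OZ1-15, OZ1-16, OZ1-20, OZ1-22 and OZ1-33). The slope of psaI was 0.36 ± 0.15 (adjusted p = 0.0846), and its nearest patterns were rpoC1 (r = 0.911), rpl20 and atpF. The partner of psaA in the reaction centre, psaB, had a slope of 0.08 ± 0.14 (adjusted p = 0.712). Without OZ1-15 and OZ1-16 none of the 5 slopes passed, and that of psaA did not pass without the 6 arrays nearer the other group either (0.43, adjusted p = 0.157).

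Among the core proteins of photosystem II, psbA and psbD, which code for the reaction centre proteins D1 and D2, both rose with the control level. The signal of psbA ran from 35.7 to 2069.8 around a median of 197 in OZ2, against 64.4 to 4123 around a median of 253 in OZ1, with a slope of 0.73 ± 0.17 (adjusted p = 0.00141). Its nearest patterns were rbcL (r = 0.916), rps7 and petB. The signal of psbD ran from 61.2 to 644 around a median of 162 in OZ2, against 51.5 to 1204 around a median of 228 in OZ1, with a slope of 0.67 ± 0.09 (adjusted p = 8.26e-07) and nearest patterns in ycf3 (r = 0.884), ndhK and ndhI. The genes of the inner antenna proteins CP47 and CP43, psbB and psbC, had slopes of 0.49 ± 0.22 and 0.53 ± 0.20 that did not pass (adjusted p = 0.0998 and 0.0502). The genes of cytochrome b559, psbE and psbF, had slopes of 0.76 ± 0.19 (adjusted p = 0.00231) and 0.47 ± 0.19 (adjusted p = 0.0602), of which that of psbE passed. The signal of psbE ran from 6.77 to 512 around a median of 85.7 in OZ2, against 15.4 to 2233 around a median of 135 in OZ1, and its nearest patterns were ndhK (r = 0.694), nad6 and AT3G30843. The signal of psbF ran from 16.3 to 1451 around a median of 262 in OZ2, against 79.5 to 9647 around a median of 359.9 in OZ1, with a log2 difference between OZ2 and OZ1 of -0.82 ± 0.48 (adjusted p = 0.201), the lowest in photosystem II.

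The remaining photosystem II genes code for small membrane subunits, apart from psbN, which acts in assembly of the reaction centre. psbN had the steepest slope of the complex, 0.90 ± 0.16 (adjusted p = 6.72e-05), and its signal ran from 33.7 to 1576 around a median of 223 in OZ2, against 46.2 to 8021 around a median of 267 in OZ1. Its nearest patterns were ycf3 (r = 0.858), AT3G33066 and ndhI. The signal of psbH, a phosphoprotein, ran from 7.17 to 471 around a median of 68.6 in OZ2, against 7.47 to 1208 around a median of 70.8 in OZ1, with a slope of 0.86 ± 0.20 (adjusted p = 0.00155) and nearest patterns in rpl33 (r = 0.804), nad6 and AT4G07450. On scan day 1 its OZ2 minus OZ1 estimate was 1.57, against -1.65 for the later days. The signal of psbT ran from 8.47 to 854 around a median of 122 in OZ2, against 59.7 to 3414 around a median of 195 in OZ1, with a slope of 0.67 ± 0.15, and its nearest patterns were psbA (r = 0.859), rpl23 and ndhK. The signal of psbK ran from 25.0 to 1654 around a median of 154 in OZ2, against 45.5 to 4257 around a median of 274 in OZ1, with a slope of 0.65 ± 0.19 and nearest patterns in rpl33 (r = 0.884), AT2G07741 and rps4. Its co-transcribed partner psbI did not pass (0.32 ± 0.13, adjusted p = 0.0697).

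Of the co-transcribed group psbE, psbF, psbL and psbJ, the last 2 also passed. The signal of psbL ran from 29.3 to 1444 around a median of 248 in OZ2, against 2.95 to 2769 around a median of 206 in OZ1, with a slope of 0.61 ± 0.21 (adjusted p = 0.0318, 0.00716 to 0.0799 with 1 array left out). It lost its call without OZ2-19, OZ1-4, OZ1-9, OZ1-15 or OZ1-16, and its nearest patterns were psbZ (r = 0.853), AT4G01290 and rps7. The signal of psbJ ran from 168 to 1709 around a median of 383 in OZ2, against 99.8 to 8803 around a median of 382 in OZ1, with a slope of 0.48 ± 0.15 and nearest patterns in ycf1 (r = 0.908), ndhC and psbZ. The signal of psbZ ran from 633 to 7427 around a median of 1371 in OZ2, against 365 to 27954 around a median of 1271 in OZ1, with a slope of 0.46 ± 0.16 (adjusted p = 0.031, 0.0129 to 0.0652 with 1 array left out), and it lost its call without OZ1-1, OZ1-4, OZ1-9, OZ1-15 or OZ1-16. Its nearest patterns were psbI (r = 0.908), ccsA and rps7. The signal of psbM ran from 647 to 17806 around a median of 3517 in OZ2, against 407 to 62773 around a median of 2661 in OZ1, and its slope of 0.45 ± 0.17 did not pass (adjusted p = 0.053).

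In the cytochrome b6f complex, petA, which codes for cytochrome f, had the lowest slope of all members, 0.07 ± 0.12 (adjusted p = 0.687), close to that of psaB (0.08 ± 0.14). The signal of petA ran from 509 to 4035 around a median of 1579 in OZ2, against 601 to 7318 around a median of 1731 in OZ1. The other 5 genes of the complex rose with the control level. The signal of petB, the gene of cytochrome b6, ran from 53.7 to 1039 around a median of 244 in OZ2, against 98.4 to 3487 around a median of 293 in OZ1, with a slope of 0.50 ± 0.14 and nearest patterns in psbA (r = 0.871), psbF and rbcL. The signal of petD, the gene of subunit IV, ran from 34.8 to 560.1 around a median of 105 in OZ2, against 39.5 to 703 around a median of 143 in OZ1, with a slope of 0.65 ± 0.11 (adjusted p = 4.87e-05) and nearest patterns in AT1G80130 (r = 0.816), ycf3 and psbD. The small subunits petG, petL and petN had slopes of 0.77 ± 0.20, 0.49 ± 0.15 and 0.80 ± 0.20. The signal of petG ran from 21.2 to 764 around a median of 98.4 in OZ2, against 3.36 to 1429 around a median of 48.8 in OZ1, and it was the member whose OZ2 median exceeded its OZ1 median by the largest ratio. Its nearest patterns were psbH (r = 0.711), psbJ and AT2G07741. The signal of petL ran from 128 to 1471 around a median of 288 in OZ2, against 69.5 to 4830.4 around a median of 228 in OZ1, with nearest patterns in psbZ (r = 0.887), psbM and ccsA, and that of petN from 17.3 to 1339.9 around a median of 218 in OZ2, against 10.9 to 2390.2 around a median of 282 in OZ1, with nearest patterns in ndhJ (r = 0.805), ccsA and AT2G07708.

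The NDH genes that passed include 4 of the peripheral arm, ndhH, ndhI, ndhJ and ndhK. The signal of ndhK ran from 53.1 to 669 around a median of 175 in OZ2, against 43.2 to 3044 around a median of 247 in OZ1, with a slope of 0.85 ± 0.12 (adjusted p = 1.57e-06) and nearest patterns in ycf3 (r = 0.858), rps4 and psbD. The signal of ndhI ran from 64.5 to 2362 around a median of 279 in OZ2, against 119 to 7087 around a median of 396 in OZ1, with a slope of 0.70 ± 0.14 (adjusted p = 3.14e-04) and nearest patterns in psbD (r = 0.842), rps4 and rpl33. The signal of ndhJ ran from 32.6 to 1418 around a median of 295 in OZ2, against 113 to 8903 around a median of 394 in OZ1, with a slope of 0.66 ± 0.16 and nearest patterns in ccsA (r = 0.905), rpl33 and rps4. The signal of ndhH ran from 5.13 to 637 around a median of 71.7 in OZ2, against 4.82 to 1236 around a median of 94.1 in OZ1, with a slope of 0.72 ± 0.22 and nearest patterns in AT2G07707 (r = 0.739), ndhK and atpA.

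Of the 7 membrane subunits of NDH, ndhF had the steepest slope of all 40 members, 0.92 ± 0.19 (adjusted p = 5.29e-04). Its signal ran from 51.6 to 877 around a median of 95.6 in OZ2, against 3.37 to 2405 around a median of 136 in OZ1, and its nearest patterns were rps15 (r = 0.811), rpl33 and psbZ. The signal of ndhG ran from 10.2 to 1121 around a median of 128 in OZ2, against 16.9 to 4370.5 around a median of 207 in OZ1, with a slope of 0.67 ± 0.21 and nearest patterns in atpH (r = 0.826), rps4 and psbK. Its OZ2 minus OZ1 difference of -0.97 ± 0.54 (adjusted p = 0.182) was the lowest in the complex and did not pass. The signal of ndhE ran from 24.5 to 2305 around a median of 216 in OZ2, against 37.0 to 6924 around a median of 292 in OZ1, with a slope of 0.71 ± 0.20 and nearest patterns in rpl36 (r = 0.859), rpl23 and rpl33. The signal of ndhD ran from 27.7 to 2104 around a median of 474 in OZ2, against 177 to 17782 around a median of 651 in OZ1, with a slope of 0.53 ± 0.17 and nearest patterns in ccsA (r = 0.902), rpl22 and rbcL. The signal of ndhB ran from 30.4 to 747 around a median of 144 in OZ2, against 75.5 to 1360.4 around a median of 205 in OZ1, with a slope of 0.47 ± 0.13 and nearest patterns in rbcL (r = 0.844), ndhD and psbA. The signal of ndhC ran from 456 to 10086 around a median of 1697 in OZ2, against 719.9 to 27452 around a median of 2251 in OZ1, and its slope of 0.32 ± 0.15 did not pass (adjusted p = 0.108), nor did that of ndhA (0.44 ± 0.17, adjusted p = 0.0529).

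The gene of the Rubisco large subunit, rbcL, ran from 131 to 3751 around a median of 472 in OZ2, against 204 to 8943 around a median of 899 in OZ1, with a slope of 0.61 ± 0.14 (adjusted p = 0.00101) and nearest patterns in psbA (r = 0.916), ycf1 and ndhJ. The photosystem I assembly factors differed in what passed: ycf3 rose with the control level (0.78 ± 0.10, adjusted p = 3.42e-07) and ycf4 did not pass (0.35 ± 0.15, adjusted p = 0.0888), and this difference between them was not tested. The signal of ycf3 ran from 121 to 1639.7 around a median of 309 in OZ2, against 107 to 3523 around a median of 385 in OZ1, with nearest patterns in psbD (r = 0.884), AT3G33066 and psbN. The nearest patterns of ycf4 were rps16 (r = 0.804), atpA and AT2G07707.

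**Figure D4:**
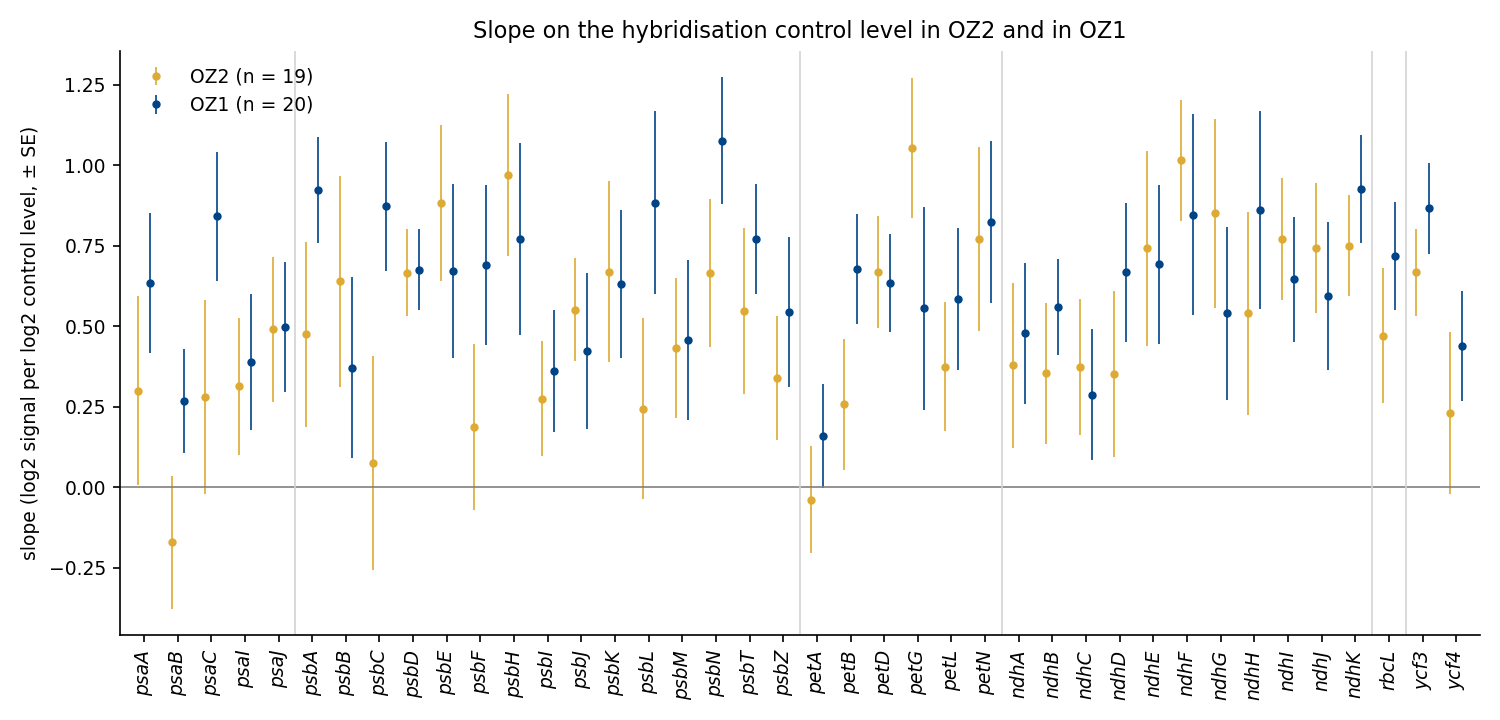
Slope of log2 signal on the hybridisation control level, with its SE, for each of the 40 genes in OZ2 (yellow, n = 19) and OZ1 (blue, n = 20), grouped by complex. In OZ1 all 40 slopes lie above 0, and in OZ2 38 do, with psaB and petA below.

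The third comparison took the submitters' order of the arrays, which was used to find periodic expression and places OZ1 at positions 1 to 20 and OZ2 at 21 to 39. The sources used here do not say how that order was obtained. An F-test of 3 harmonics beyond the step between OZ1 and OZ2 called 4 members (0.411% of all tested probe sets): ndhK (fitted range 3.83 on the log2 scale, adjusted p = 0.0027), psbN (4.22, 0.0229), ycf3 (3.31, 0.0333) and psbD (2.82, 0.0459). All 4 had their highest fitted value at position 10, where OZ1-16 lies next to OZ1-15 at position 9. The signals of ndhK on these arrays were 3044 and 2937, against at most 810.2 on the other OZ1 arrays. Without the pair, 1 member passed (0.044% of all), ndhK with a range of 2.93 (adjusted p = 0.022), while psbN (3.00, adjusted p = 0.163), ycf3 (0.118) and psbD (0.115) did not. The control level itself changed along this order: 10.7 at position 1 (OZ1-1), 14.5 at position 11 (OZ1-10) and 11.1 at position 20 (OZ1-20). In OZ2 it was 11.9 at position 21 (OZ2-4), 15.5 at position 28 (OZ2-32) and 12.3 at position 39 (OZ2-1). A fit with both terms can thus hardly separate the order from the control level, and the slopes and order calls overlap. With the control level in the model, 0 members and 0% of all tested probe sets passed. At an unadjusted p under 0.05 there were 0 members (372 of all 13627), and 27 without that term (1854 of all). Without the 11 arrays of strong controls 0 members and 0% of all passed. Without the 6 nearer the other group 5 did (0.367% of all), the same 4 and ndhI (range 4.31, adjusted p = 0.0364). With 1 array left out, ndhK kept its call in all 39 choices. psbN lost it without OZ1-1, OZ1-15 or OZ1-16 (adjusted p up to 0.0759), and ycf3 without OZ2-4, OZ2-19, OZ1-1, OZ1-4, OZ1-9, OZ1-10, OZ1-15, OZ1-16 or OZ1-20 (up to 0.0931). psbD lost it for any 1 of 24 arrays (OZ2-4, OZ2-6, OZ2-9, OZ2-14, OZ2-19, OZ2-21, OZ2-23, OZ2-32, OZ2-36, OZ2-38, OZ2-39, OZ2-40, OZ1-1, OZ1-3, OZ1-4, OZ1-9, OZ1-14, OZ1-15, OZ1-16, OZ1-17, OZ1-19, OZ1-31, OZ1-33 and OZ1-35; up to 0.11).

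The members followed each other across arrays whether or not they share a transcript. The 48 pairs from the same co-transcribed group had a median Pearson r of 0.667 across the 39 arrays within OZ2 and OZ1 (0.420 to 0.878), and the 732 pairs from different groups 0.680 (0.18 to 0.926). The highest of the first kind was psaI with petA, at 0.878. Without OZ1-15 and OZ1-16 the medians were 0.521 and 0.542, and beyond the control level they were 0.587 and 0.617. All genes of an array share its labelling and scaling, and these values are a description. Of the 93 nearest probe sets named above for 31 members, searched among 7575 probe sets of 1 named gene each, 43 were members and 79 were plastid-encoded. The gene table placed 12 on nuclear chromosomes, and what else those probe sets match was not examined. The rest were nad6, named for psbE and psbH, which had no chromosome in that table.

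Other genes of the same pathway were taken from lists. Of 37 other plastid-encoded probe sets 0 rose and 0 fell in OZ2. An unadjusted p under 0.05 was found for 5 of the 37, against 5269 of all 13627 tested probe sets. Their median difference was -0.48 with 33 below 0, and 18 of the 37 rose with the control level (median slope 0.37). The order called 0 of the 37. Of 5 matched nuclear genes for subunits of the same complexes 4 were tested, and all 4 rose in OZ2 (13.3% of all tested probe sets did). PSAE-1, a peripheral subunit of photosystem I, averaged 8.25 ± 1.32 log2 units in OZ2 and 5.01 ± 1.88 in OZ1 (SD, n = 19 and 20), a difference of 3.24 (limma adjusted p = 4.83e-06). Its OZ1 mean lay below the tested level of 5.69 log2 units, so it entered the tests only through OZ2 and its rise is a description. PSB27, PSBW and PSBY of photosystem II had log2 differences of 1.46, 1.13 and 1.12 (adjusted p = 0.001, 0.0493 and 0.0108). When days were blocked, PSAE-1 (2.95, adjusted p = 9.17e-04) and PSBW (1.75, 0.0354) passed, and PSB27 (0.109) and PSBY (0.107) did not. Of the 4, PSAE-1 also rose with the control level (0.53 ± 0.19, adjusted p = 0.0413). Whether the nuclear and plastid-encoded genes differ in their change was not tested. CRR28, a nuclear editing factor for NDH transcripts, had a difference of -0.05 (adjusted p = 0.943) and rose with the control level (0.73 ± 0.13, adjusted p = 9.98e-05). The 3 matched genes of plastid transcription were below the tested level.

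Markers of other cells moved between OZ2 and OZ1 as well. The green tissue marker LHCB4.1 rose by 1.95 (adjusted p = 0.00852) and LHCB4.2 had 0.90 (adjusted p = 0.226). The OZ1 means of both (5.04 and 5.56 log2 units) lay below the tested level of 5.69, so both entered the tests only through OZ2. The root hair expansins EXPA7 and EXPA18 rose by 3.43 and 4.23, and the mitotic genes AUR1 and BUB3.1 fell by 0.93 and 1.51 on the log2 scale, while AUR2 had -0.14 and did not pass. LBD16, a marker of lateral root founder cells, rose by 1.44, and PUCHI had -0.25 and did not pass. When days were blocked, EXPA18 alone of these markers passed (adjusted p = 0.0026). The lists were matched by gene symbol, and those for endodermis, xylem, phloem and root cap gave 0 matches. This does not show that the array lacks probe sets for their genes. The part of these cell types in the levels of the members was not tested.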

How the data were processed

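The authors deposited 1 intensity value for each probe set on each array. Per the submitters' processing notes the tool was MAS5, and no version is named. The trimmed means between the 2nd and 98th percentile were nearly equal on all arrays, so a scaling per array preceded deposit. Scan days came from the instrument records (unit other) deposited with the arrays. No further normalization was applied, values were taken as log2, and the number of arrays limits the precision.

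All fits used limma 3.58.1 under R 4.3.3 (eBayes with a mean-variance trend, two-sided, Benjamini-Hochberg adjustment over 13627 probe sets, threshold 0.05), and the scripts were tested on simulated data. The models were OZ2 against OZ1, the slope on the control level with OZ2 and OZ1 as a term, and 3 harmonics of the 39 positions with the same term. The 64 Affymetrix control probe sets were left out. No pair of arrays held identical values. Same-numbered arrays of OZ2 and OZ1 deviated together only weakly (r over 0.1 in 3 of 14 pairs, from -0.248 to 0.196, median 0.028). Of their 28 arrays, 4 correlated best with their own number. The numbers were not taken to pair the arrays, and these values do not settle whether a number marks a shared root.

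The members, gene lists and tests were chosen with earlier results of these data known. Ranges are given for each member that passed a comparison and, per complex, for the member with the highest mean and the one with the largest OZ2 minus OZ1 difference, and the 3 probe sets most like each called member by Pearson r are named. Names come from the platform's probe table and TAIR10.1. No source used here names the array's genome build, so coordinates are left out, and sequences of the members were not analysed here. Alternatives covered normalization, pseudocount, filter, weights, scan day, control level, form of the order and arrays left out, and those without OZ1-15 and OZ1-16, the within-day slopes, the day 3 against day 2 contrast, the day block together with the control level, and the array median as a term were chosen after seeing the data.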

Additional observations from a re-analysis of the deposited data

How the results depend on the processing

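The count of members lower in OZ2 (2) was 3 with array weights, 2 under the 60th percentile filter, robust eBayes and without the arrays of strong controls, 1 with log2(value + 16), without a filter, without the 6 arrays nearer the other group and with the position as a term, and 0 under quantile normalization. It was 8 with the control level as a term, 13 for OZ2 of scan day 3 against OZ1 of scan day 2, and 0 with the scan day as a block, on scan day 1 alone and with the day block and the control level together, while 1 member was higher without OZ1-15 and OZ1-16. Over all tested probe sets the calls in both directions moved as well. They were 3949 as reported, 6342 with array weights, 3943 under robust eBayes and 4114 with log2(value + 16). Without the arrays nearer the other group they were 5614, with the position 3937 and under quantile normalization 3611. They were 3389 of 9071 under the 60th percentile filter and 3883 of 22746 without a filter. The count of rising slopes (29) was 23 to 35 under quantile normalization, the pseudocount, both filters, weights, robust eBayes, the scan day block, Cre or BioB, BioC and BioD probe sets alone, and without the arrays nearer the other group. It was 19 without OZ1-15 and OZ1-16, 15 without the arrays of strong controls, 17 in OZ1 alone, 11 in OZ2 alone, 10 on scan day 1, 0 on day 2, 11 on day 3, and 0 with the array median as a term, where the slopes of psaC (-0.013) and ndhJ (-0.068) turned below 0. That last fit can hardly separate the array median from the control level. Over all tested probe sets the slope calls in both directions were 3437 as reported, 2825 under quantile normalization, 2874 with weights and 3763 with the pseudocount. They were 9535 of 22746 without a filter and 2382 of 9071 under the 60th percentile filter. The 4 order calls became 12 with array weights, 9 with 2 harmonics, 5 without a filter and without the arrays nearer the other group, 1 with 4 harmonics, with a spline and without OZ1-15 and OZ1-16, and 0 under quantile normalization, without the arrays of strong controls and once the control level was in the model. Over all tested probe sets the order calls went from 56 to 373 with weights, 305 with 2 harmonics and 503 of 22746 without a filter. They were 50 without the arrays nearer the other group, 30 with 4 harmonics, 12 with a spline and 6 without OZ1-15 and OZ1-16. In the settings with 0 members they were 0. Leaving out 1 array at a time gave 0 to 2 members lower in OZ2, 26 to 37 rising slopes and 1 to 7 order calls. Over all tested probe sets the same fits gave 3643 to 4406 calls between OZ2 and OZ1, 3054 to 3557 slope calls and 15 to 119 order calls. With the title number as a replicate block, 0 members differed between OZ2 and OZ1 (median -0.02) and 8 slopes rose. In that fit 3601 of all tested probe sets differed and 417 had a slope that passed. Fewer arrays enter the single-day, single-group and replicate block fits, and for the other changes the cause was not tested.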
